A study of Klebsormidium nitens with 4 samples.

Results

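A set of 6 transcripts of the charophyte alga Klebsormidium nitens that encode antioxidant and thiol-disulfide enzymes were followed through an acute rise in light. They are the catalase gene (CAT, kfl01057_0030), 2 peroxiredoxin Q genes (PRXQ, kfl00014_0230 and kfl00014_0250), 2 genes named as thioredoxin-disulfide reductases (TRX, kfl00120_0050 and kfl00573_0030) and an NADPH-dependent thioredoxin reductase gene (NTR, kfl00021_0420). The 6 genes were taken by identifier from the text of the study and are 6 of the 17290 genes in its expression table. The study named them on the same libraries, so their common direction is not independent evidence. High light cultures of strain NIES-2285 had received 1500 µE m-2 s-1 of white light for 3 h, and low light cultures were kept at 50 µE m-2 s-1. Each condition was represented by 2 independent cultures. All cultures were grown photoautotrophically under continuous light with CO2-enriched air and were harvested in exponential phase. Only 1 strain and 1 time point were sampled, and RNA came from whole cultures of a filamentous alga, so that a change in every cell and a change in some of the cells cannot be told apart.

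Illuminated chloroplasts release hydrogen peroxide when electrons leak to oxygen. Catalase splits hydrogen peroxide into water and oxygen without a reductant, whereas peroxiredoxin Q, a thiol peroxidase of plant plastids, reduces peroxides with a cysteine that has to be regenerated by thioredoxin. Thioredoxins reduce disulfide bonds in other proteins, and NTR passes electrons from NADPH to thioredoxin. Protein disulfide isomerases share the thioredoxin fold but form and rearrange disulfides, mainly in the endoplasmic reticulum. In the homology annotation of the study the closest Arabidopsis proteins are the catalase CAT1 for kfl01057_0030, PRXQ for both peroxiredoxin genes, the tetratricopeptide thioredoxin TDX for kfl00573_0030 and the thioredoxin reductase NTRA for kfl00021_0420. For kfl00120_0050 the closest Arabidopsis protein is a protein disulfide isomerase of the PDIL1 group, and not a thioredoxin or a reductase.

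Expression was given as FPKM (fragments scaled to exon length and to the mapped reads of the library), which can be compared between genes. The libraries summed to 620285 and 620013 FPKM in high light and to 660467 and 657079 in low light, without read counts, so the depth behind each gene is unknown. Genes were tested in limma on quantile-normalized log2(FPKM + 1) over all 17290 genes, and called activated at a log2 fold change of at least 1, or repressed at −1 or less, with a Benjamini-Hochberg adjusted p below 0.05. With this rule 691 genes (4.00%) were activated and 607 (3.51%) repressed. Without normalization the calls were 515 activated and 876 repressed. Over genes above 0 in every library, the median log2 fold change was then −0.22, against 0.0035 with quantile normalization.

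In high light 5 of the 6 genes were called activated, against 4.00% of all genes. Both high light libraries lay above both low light libraries in 6 of 6 genes, an arrangement found in 27.1% of the 11820 genes above 0 in at least 1 library, with 48.4% in the opposite arrangement. Their log2 fold changes had a median of 1.30, and those of the 11820 genes a median of −0.008. CAT was the member that missed the call, by its fold and not by its p. The study reports CAT as activated, so the call made here differs from the published one, although the study too states quantile normalization and limma.

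**Figure D1:**
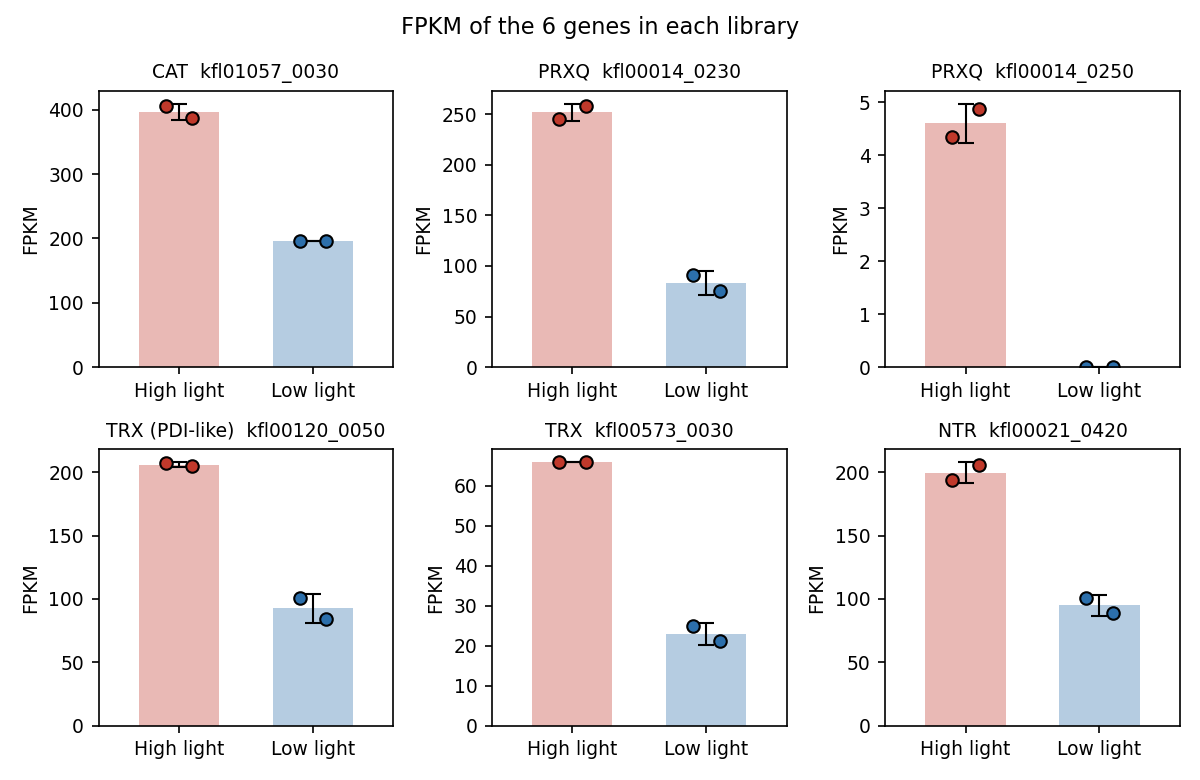
FPKM of the 6 genes (vertical axes, each panel with its own scale from 0) in high light and low light. Points are single libraries, bars are means and error bars are SD over 2 libraries. The 2 high light points stand above the 2 low light points in every panel, and kfl00014_0250 is at 0 in low light and under 5 FPKM in high light.

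CAT was the most abundant of the 6 transcripts in both conditions. It had 406 and 387 FPKM in high light, against 197 and 196 FPKM in low light. The low light replicates were nearly equal and the 2 conditions were far from overlapping, with means of 397 ± 13.0 FPKM in high light and 197 ± 0.287 FPKM in low light (SD, n = 2 each). These means have a ratio of 2.02, yet quantile normalization gave a log2 fold change of 0.90 (standard error 0.02, 95% interval 0.82 to 0.97, limma adjusted p = 0.0145). The fitted value lies under the threshold of 1, so CAT was not called, and the whole interval lies under 1 too. Without normalization the log2 fold change was 1.01, with cyclic loess 1.04 and with median scaling of FPKM 1.22, and in these 3 settings CAT was called. The processing therefore set the call, while the direction was the same in all of them. The study also states quantile normalization and limma, and reports more than 2-fold activation of CAT. The ratio of mean FPKM, at 2.02, is above 2 as well. Why the call made here differs from that of the study was not tested. Among genes above 0 in a library CAT stood at the 98.0th percentile in both high light libraries, and at the 95.9th and 96.1st in the low light libraries. CAT lies at 10373 to 15792 on scaffold kfl01057 (assembly ASM70883v1).

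The PRXQ gene kfl00014_0230 rose 3.02 times in mean FPKM, the largest ratio among the 5 members above 0 in low light. Its FPKM was 246 and 258 in high light, against 91.5 and 75.0 in low light. The low light replicates differed more than the high light replicates, but by far less than the conditions did. The log2 fold change was 1.52 (standard error 0.11, 95% interval 1.09 to 1.94, limma adjusted p = 0.0361). This is slightly below the 1.56 of kfl00573_0030, so the order of these 2 genes depends on the measure. In abundance kfl00014_0230 moved past NTR and kfl00120_0050, with which it overlapped in low light, to second place in high light.

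The other PRXQ gene, kfl00014_0250, had 4.34 and 4.87 FPKM in high light, and low light listed it at 0 in both replicates. It was called activated (limma adjusted p = 0.0141), but no fold is given against a group listed at 0, since its fitted log2 value depends on the pseudocount, at 2.68 with a pseudocount of 1 and 5.79 with 0.1. Such genes were few. Over all genes, 84 were above 0 in both high light libraries and at 0 in both low light libraries, with a median of 1.38 FPKM in high light, and 21 of them reached at least the mean of kfl00014_0250. Its level in high light was at the 22.6th and 24.2nd percentile of the genes above 0, whereas kfl00014_0230 stood at the 96.6th and 96.8th. Whether reads were divided between the 2 PRXQ genes by the mapping was not tested.

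**Figure D2:**
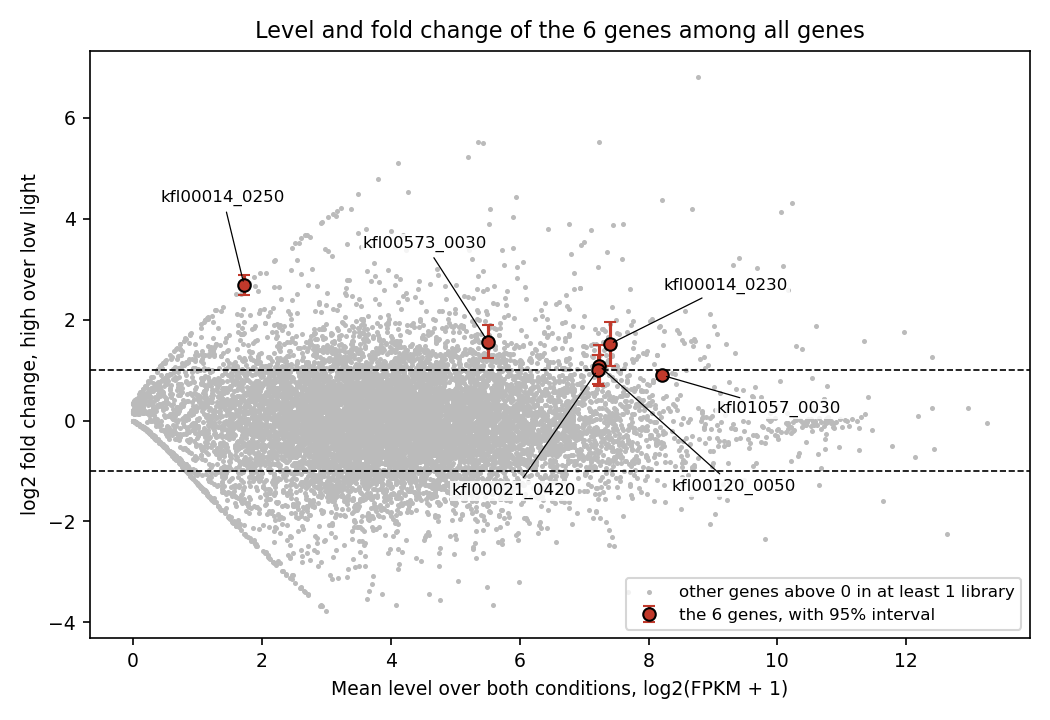
Mean level over both conditions (horizontal axis, log2(FPKM + 1)) and log2 fold change of high over low light (vertical axis, quantile-normalized scale) for genes above 0 in at least 1 library. Red points are the 6 genes with 95% intervals and dashed lines mark −1 and 1. The 4 most abundant lie to the right, CAT just under the upper line at 0.90, while kfl00014_0250 sits on the edge formed by genes listed at 0 in low light.

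The 2 PRXQ genes lie on scaffold kfl00014 at 149381 to 152546 and 161926 to 166695 of assembly ASM70883v1, separated by 9379 bases. A single gene, kfl00014_0240, occupies most of that space (152924 to 161459), 377 bases from the first PRXQ gene and 466 bases from the second. Its FPKM was 21.5 and 30.01 in high light, against 21.1 and 16.8 in low light. The high light values lay above the low light values only narrowly, and with a log2 fold change of 0.57 (95% interval −0.30 to 1.43, limma adjusted p = 0.283) it was not called. Within each library, kfl00014_0230 was 11.4 and 8.59 times as abundant as kfl00014_0240 in high light, against 4.35 and 4.47 times in low light, so the libraries did not overlap in this ratio, as they did not in 76.9% of all gene pairs.

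The stretch was extended to the 5 genes on each side. Of the 11 genes of this stretch other than PRXQ, limma called 0, and 4 had an unadjusted p below 0.05, against 31.9% of all genes. The most abundant was kfl00014_0210, with 1327 and 1318 FPKM in high light against 2161 and 2034 FPKM in low light, a log2 fold change of −0.56 at a limma adjusted p of 0.0684. The gene after the second PRXQ gene, kfl00014_0260, had 101 and 80.7 FPKM in high light, against 174 and 168 FPKM in low light (log2 fold change −0.95, limma adjusted p = 0.0715). The largest log2 fold change of the 11 was that of kfl00014_0180, at −1.66 (limma adjusted p = 0.11). It had 1.67 and 0.529 FPKM in high light, against 7.64 and 8.49 FPKM in low light. In the 2 settings limited to expressed genes it was called repressed (limma adjusted p of 0.016 and 0.0195). These genes had lower values in high light, in libraries where the PRXQ genes had higher ones, as did 48.4% of all genes above 0 in at least 1 library. Values of kfl00014_0240 were higher in high light.

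**Figure D3:**
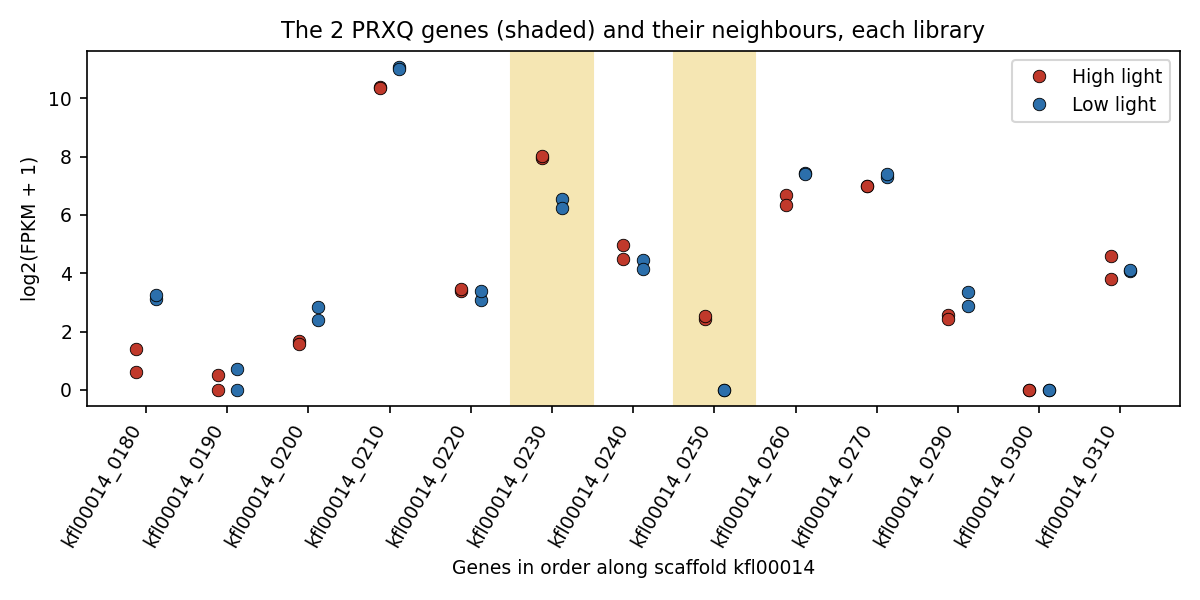
Level of 13 consecutive genes of scaffold kfl00014 in each library (vertical axis, log2(FPKM + 1)), in their order along the scaffold, with the 2 PRXQ genes shaded. Each point is 1 library, high light in red and low light in blue. The shaded genes are the 2 of the 13 that were called, and kfl00014_0240 between them has close values in both conditions.

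Both TRX genes and NTR were called activated, with ratios of means of 2.10 to 2.86. The thioredoxin gene kfl00573_0030 had 65.95 and 65.93 FPKM in high light, against 24.98 and 21.1 FPKM in low light. Its high light replicates were nearly identical, and its log2 fold change of 1.56 (standard error 0.09, 95% interval 1.24 to 1.89, limma adjusted p = 0.0268) was close to that of kfl00014_0230. Even so it was the least abundant of these 3 genes in every library. In assembly ASM70883v1 kfl00573_0030 lies at 15906 to 19303 of scaffold kfl00573, kfl00120_0050 at 22920 to 28587 of scaffold kfl00120 and NTR at 265829 to 269683 of scaffold kfl00021.

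The disulfide isomerase homolog kfl00120_0050 had 207 and 205 FPKM in high light, against 101 and 84.2 FPKM in low light. The log2 fold change was 1.09 (standard error 0.11, 95% interval 0.68 to 1.50, limma adjusted p = 0.0461). NTR (kfl00021_0420) had 194 and 206 FPKM in high light, against 101 and 89.1 FPKM in low light, and its log2 fold change was 1.01 (standard error 0.08, 95% interval 0.72 to 1.29, limma adjusted p = 0.0362). Both intervals reach below the threshold of 1. Without low light replicate 2 the log2 fold change was 0.98 for kfl00120_0050 and 0.94 for NTR, and without high light replicate 2 that of NTR was 0.96.

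Levels and folds ordered the 6 genes differently. In high light the order was CAT, kfl00014_0230, kfl00120_0050, NTR, kfl00573_0030 and kfl00014_0250, and only kfl00120_0050 and NTR had overlapping libraries. In low light CAT was followed by NTR, kfl00120_0050 and kfl00014_0230, whose neighbours in this order overlapped, and then by kfl00573_0030 and kfl00014_0250. Ratios between 2 genes within a library are free of library scaling and were taken for the 10 pairs of the 5 genes above 0 in all 4 libraries. They separated high from low light in 7 of the 10 pairs, against 76.9% of all gene pairs, so the count of pairs does not set these genes apart. With 2 libraries against 2 an exact permutation test cannot give a two-sided p below 0.33, and none was run on these ratios.

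The 3 pairs that overlapped were those among CAT, kfl00120_0050 and NTR. CAT was 2.09 and 1.88 times as abundant as NTR in high light, against 1.95 and 2.20 times in low light, and kfl00120_0050 was 1.07 and 0.996 times as abundant as NTR in high light, against 1.00 and 0.945 times in low light. The replicates did not separate the folds of these 3 genes. Against NTR, in contrast, kfl00014_0230 stood at 1.27 and 1.25 in high light and at 0.909 and 0.842 in low light, and kfl00573_0030 stood at 0.340 and 0.321 in high light and at 0.248 and 0.237 in low light. The ratio of kfl00014_0230 to kfl00573_0030 was 3.73 and 3.91 in high light, against 3.66 and 3.55 in low light, a separation of only 1.06 times in the means.

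Genes with the most similar values were sought over the 4 libraries by Euclidean distance of log2(FPKM + 1). For kfl00120_0050 the nearest of all other genes was NTR, at a distance of 0.125. For NTR it was kfl00049_0030 (0.097), for CAT kfl00096_0190 (0.137), for kfl00014_0230 kfl00696_0040 (0.176), for kfl00573_0030 kfl00876_0020 (0.185) and for kfl00014_0250 kfl00363_0040 (0.264). Apart from NTR these genes are not named in the text of the study. The nearest gene to kfl00014_0250 was likewise listed at 0 in low light, with 5.28 and 5.40 FPKM in high light.

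The genes adjacent to CAT, to the TRX genes and to NTR were 7, of which 1 was activated and 1 repressed. Over all genes the shares were 4.00% and 3.51%. The activated one, kfl00573_0020, lies 211 bases from the thioredoxin gene kfl00573_0030 and has the Arabidopsis peptide methionine sulfoxide reductase PMSR1 as its closest protein, an MSRA-type enzyme that repairs oxidized methionine. It had 1999 and 1885 FPKM in high light, against 240 and 217 FPKM in low light. This is a rise of 8.51 times in the means (log2 fold change 3.06, standard error 0.04, 95% interval 2.89 to 3.23, limma adjusted p = 0.0113). Its ratio to the thioredoxin gene was 30.3 and 28.6 in high light, against 9.59 and 10.3 in low light. Leaving out a high light library ended the call of kfl00573_0020 (limma adjusted p of 0.0889 and 0.0947 without replicates 1 and 2), and leaving out a low light library did not. The repressed one, kfl00021_0400 beside NTR, was at 0 in both high light libraries, against 5.84 and 7.32 FPKM in low light (limma adjusted p = 0.0286, and 0.186 and 0.189 without high light replicates 1 and 2). Next to kfl00120_0050, kfl00120_0060 had 32.0 and 29.5 FPKM in high light against 12.5 and 16.5 FPKM in low light, and was not called (log2 fold change 1.21, limma adjusted p = 0.0925).

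Related genes were then looked up in the study's tables of activated and repressed genes by their closest Arabidopsis protein. These 10 genes were chosen after their values were seen, from tables that hold changed genes only, so their number says nothing about how often such genes change. Among them were a second catalase gene and another PRXQ gene that had the opposite direction to the members of their families. The catalase homolog kfl00404_0100 (closest to CAT3) had 18.3 and 20.9 FPKM in high light, against 84.9 and 76.4 FPKM in low light, and was repressed (log2 fold change −1.90, standard error 0.08, 95% interval −2.18 to −1.62, limma adjusted p = 0.0206). The PRXQ homolog kfl00291_0160 had 23.5 and 20.2 FPKM in high light, against 67.6 and 74.0 FPKM in low light, and was repressed (log2 fold change −1.57, standard error 0.14, 95% interval −2.08 to −1.05, limma adjusted p = 0.0407). Leaving out any 1 of the 4 libraries ended both calls (limma adjusted p 0.111 to 0.193), while the log2 fold changes stayed between −1.97 and −1.81 for the catalase homolog and between −1.67 and −1.44 for the PRXQ homolog. Other genes of these families that are in neither table were not analysed here.

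**Figure D4:**
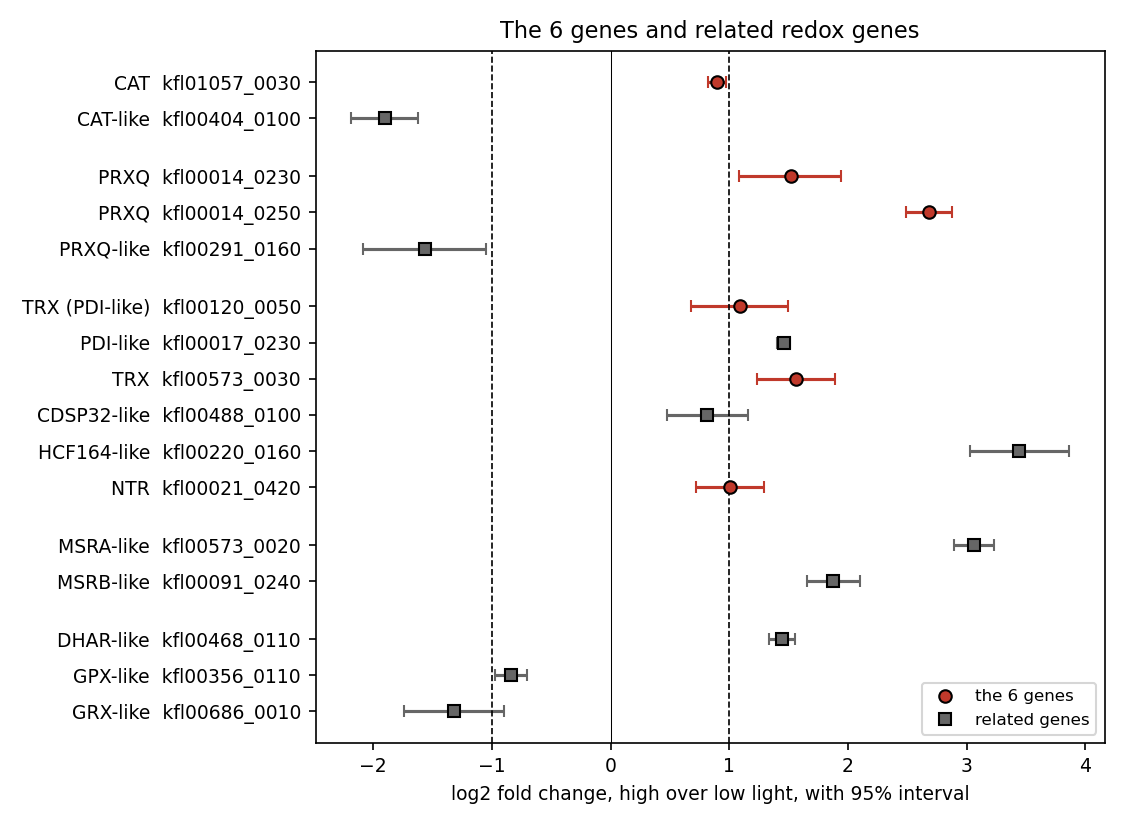
Log2 fold change of high over low light (horizontal axis, quantile-normalized scale) with 95% intervals for the 6 genes (red circles) and 10 related genes chosen after their values were seen (grey squares), grouped by enzyme family, with dashed lines at −1 and 1. CAT and the catalase homolog kfl00404_0100 lie on opposite sides of 0, at 0.90 and −1.90, and so do the PRXQ genes of scaffold kfl00014 and kfl00291_0160.

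Further thioredoxin-fold and repair genes looked up in those tables had both directions. The glutaredoxin homolog kfl00686_0010 was repressed (log2 fold change −1.32) and the glutathione peroxidase homolog kfl00356_0110 had lower values in high light (log2 fold change −0.84, not called), while the following had higher values. The homolog of the plastid methionine sulfoxide reductase MSRB2, kfl00091_0240, had 810 and 856 FPKM in high light, against 208 and 200 FPKM in low light (log2 fold change 1.88, limma adjusted p = 0.0173). The homolog of HCF164, a thylakoid thioredoxin-like protein, kfl00220_0160, had 63.8 and 75.1 FPKM in high light, against 6.31 and 6.68 FPKM in low light, a rise of 10.7 times (log2 fold change 3.45, limma adjusted p = 0.0175). A second disulfide isomerase homolog, kfl00017_0230, had 39.1 and 40.7 FPKM in high light, against 15.8 and 14.9 FPKM in low light (log2 fold change 1.46, limma adjusted p = 0.00814). The homolog of the plastid thioredoxin-like protein CDSP32, kfl00488_0100, had 356 and 349 FPKM in high light, against 174 and 193 FPKM in low light, and was not called (log2 fold change 0.81, limma adjusted p = 0.052). With each library left out in turn, kfl00091_0240 was called in 1 of 4 cases, kfl00220_0160 in 0 and kfl00017_0230 in 2, at limma adjusted p of 0.0212 to 0.106.

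The study's text names 9 further genes for reactive oxygen removal and protein quality control, and limma called 4 of the 9 activated, against 4.00% of all genes. Their median log2 fold change was 1.05. The study named these 9 genes on the same libraries, so neither the count nor the median is independent evidence. The 4 were the thylakoid protease FtsH2, the chaperone HSP101 and both chaperonin subunits CPN60A and CPN60B, with log2 fold changes of 1.05, 1.19, 1.28 and 1.40. HSP90 (log2 fold change 1.58) missed the call at a limma adjusted p of 0.0552. The calls of both heat shock proteins depended on the processing: HSP90 was called in 6 of 9 other settings that kept all libraries, and HSP101, at a limma adjusted p of 0.0498, in 5 of the 9. The 9 include the replicate block with either numbering, which called 0 genes over all genes and so could not call these. Without normalization, for example, the limma adjusted p was 0.0462 for HSP90 and 0.0604 for HSP101. The enzymes of the water-water cycle, which removes superoxide and hydrogen peroxide with ascorbate, did not reach the fold threshold. The study describes superoxide dismutase, ascorbate peroxidase and HSP90 as activated, monodehydroascorbate reductase as underexpressed and flavodiiron protein as not activated. Superoxide dismutase (SOD, kfl00631_0030) had 420 and 445 FPKM in high light, against 288 and 279 FPKM in low light (log2 fold change 0.50, limma adjusted p = 0.047). Ascorbate peroxidase (APX, kfl00460_0010), which also scavenges hydrogen peroxide, had 18.5 and 20.4 FPKM in high light, against 18.1 and 18.5 FPKM in low light (log2 fold change 0.25, 95% interval 0.04 to 0.46, limma adjusted p = 0.123). Monodehydroascorbate reductase (MDAR, kfl00196_0050) had a log2 fold change of −0.08 (95% interval −0.27 to 0.11, but 0.18 with median scaling of FPKM and 0.02 with cyclic loess). Its libraries overlapped, with 115.7 and 108.3 FPKM in high light against 117.5 and 111.4 FPKM in low light, so its reported underexpression was not seen here. Flavodiiron protein (Flv, kfl00041_0060) had a log2 fold change of −0.43 (95% interval −0.80 to −0.06). The interval of CAT, 0.82 to 0.97, did not overlap that of APX, and the difference between the 2 genes was not tested.

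**Figure D5:**
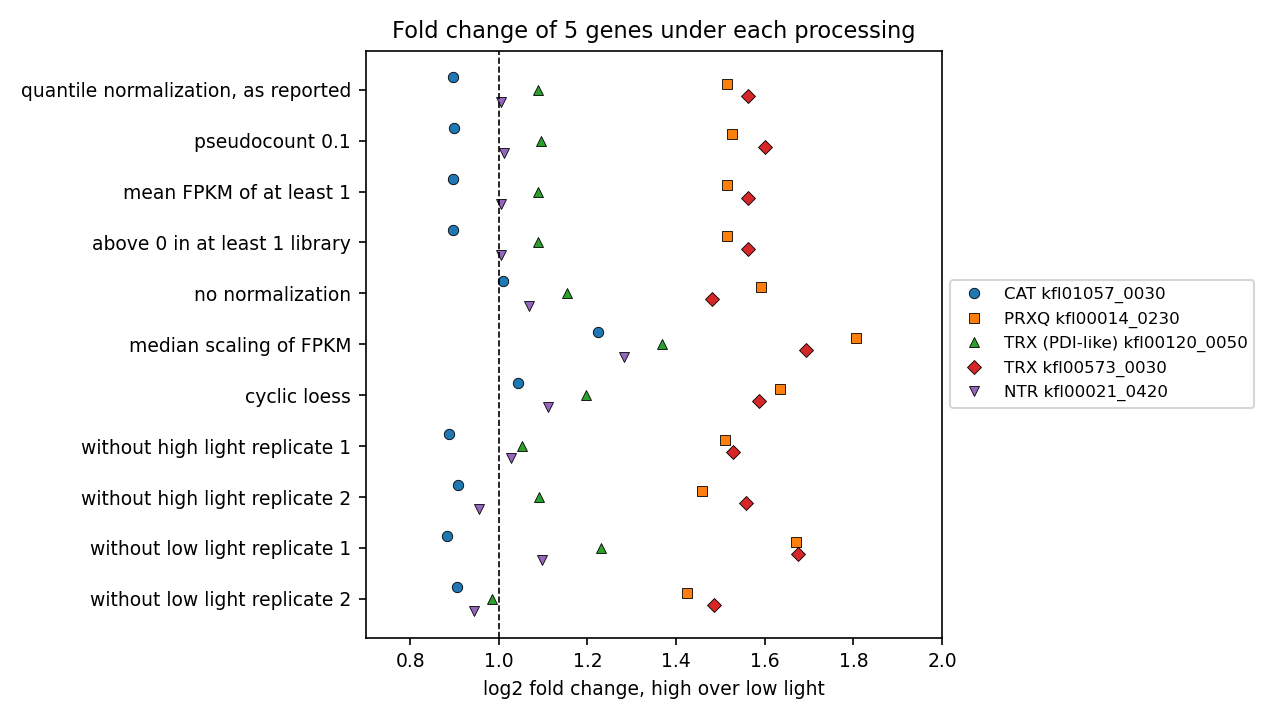
Log2 fold change of high over low light (horizontal axis) of the 5 genes above 0 in all libraries, under 11 ways of processing the data (rows), with the threshold of 1 dashed. CAT lies left of the line with quantile normalization at 0.90 and right of it with median scaling at 1.22, NTR lies between 0.94 and 1.28, and kfl00014_0230 and kfl00573_0030 stay at 1.42 or more throughout.

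The calls rested on both replicates. With 1 library left out, 1 of the 6 was called in each of the 4 cases, kfl00573_0030 without a low light library and kfl00014_0250 without a high light library, while all log2 fold changes kept their sign. The limma adjusted p ranged from 0.0175 for kfl00014_0250 to 0.251 for kfl00120_0050 among the 5 called genes, and from 0.014 to 0.118 for CAT. These fits take the spread of the lone library from the condition that keeps both. For kfl00014_0250 without a high light library, that condition is low light, where both values were 0. Its call there therefore rested on a spread fixed by the floor, and is no measure of its stability. The signs had little room to change, since each high light library lay above each low light library in all 6 genes.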

How the data were processed

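Stranded mRNA libraries of 4 cultures were sequenced. The authors ran HISAT2 for mapping and StringTie for quantification against genome version 1.0, within the MARACAS pipeline, and deposited FPKM per gene and library. Tool versions are not given in the sources used here, and the values carry no read counts. Here a pseudocount of 1 was added, log2 values were quantile normalized, and the conditions were compared over all 17290 genes with limma 3.58.1 in R 4.3.3, with thresholds from the study's methods and Benjamini-Hochberg adjustment. SDs are over 2 libraries, and the replicates share only a number. Scripts were checked on simulated data. The 6 genes and all lists were chosen with earlier results of these data known. Genes named are the members, their neighbours, the nearest gene by profile, 9 genes of the study's text, and 10 related genes picked after their values were seen. Coordinates are from the reference table of ASM70883v1, matched by locus number for 16199 genes. The scaffold whose accession the study cites carries the kfl00001 genes in that table. Lists by protein similarity and motifs were planned, and were not made without protein sequences. The authors' homology columns gave names and served to find the 10 related genes, and their mean FPKM columns were not used.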

Additional observations from a re-analysis of the deposited data

How the results depend on the processing

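Over 78 alternative fits of the 6 genes the log2 fold change was positive in 78. Both limits to expressed genes, a variance trend and the replicate block with either numbering returned the log2 fold change of the main fit. The sign was therefore fixed in those settings. In all 6 genes each high light library lay above each low light library, so leaving 1 out gave the sign little room to change. CAT gained the call in 3 settings that kept all libraries, and the 5 called genes lost theirs with the replicate block. The calls among the 6 fell to 0 with an adjusted p below 0.01 and with the replicate block, and to 1 with each library left out. The 0.01 cut was applied only to the fit over all 17290 genes. When the test was limited to a mean FPKM of 1 or more in the higher condition, the 5 called genes had limma adjusted p of 0.00362 to 0.00938. This limit keeps genes at 0 in the other condition, such as kfl00014_0250, which had the lowest of these values. Such a limit repeated the fit on fewer genes, so the variance that limma shares between genes changed along with the number of tests. Over all genes the activated calls were 1212 and the repressed 1222 with this limit, and 1199 and 1216 over genes above 0 in at least 1 library. With an adjusted p below 0.01 they were 28 and 25, and with 1 library left out 141 to 180 and 75 to 242. Of the 9 text genes, 0 were called with an adjusted p below 0.01 or the replicate block, and 0 to 1 with 1 library left out. With the replicate block limma called 0 activated and 0 repressed genes, while 4365 had an unadjusted p below 0.05. The numbers correlated at −0.193 across genes between conditions, and with crossed numbers, chosen after seeing the data, 0 activated and 0 repressed genes were called, 0 of the 6 and 0 of the 9 among them, with 4383 at an unadjusted p below 0.05. The lists by protein similarity and motif were not run. Precision is limited by 2 libraries per condition and by the unknown depth of each gene.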

Other observations

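Genes that work with glutathione, the other thiol system of plant cells, or are only named for it, had both directions among those looked up in the study's tables after their values were seen. The homolog of dehydroascorbate reductase, which regenerates ascorbate with glutathione, kfl00468_0110, had 75.7 and 77.9 FPKM in high light, against 30.1 and 27.9 FPKM in low light (log2 fold change 1.44, standard error 0.03, limma adjusted p = 0.0141). The glutaredoxin homolog kfl00686_0010 had 81.3 and 98.4 FPKM in high light, against 216 and 212 FPKM in low light, and was repressed (log2 fold change −1.32, standard error 0.11, limma adjusted p = 0.0398). The homolog of glutathione peroxidase kfl00356_0110, a thiol peroxidase like PRXQ that uses thioredoxin in plants, had 2.29 and 2.27 FPKM in high light, against 6.89 and 7.10 FPKM in low light. Its log2 fold change of −0.84 (limma adjusted p = 0.0215) lay short of the threshold with a pseudocount of 1. It was called in 3 of 9 other settings that kept all libraries, at −1.02 with a pseudocount of 0.1, −1.11 with median scaling of FPKM and −1.28 without normalization. The 9 include the replicate block with either numbering, which called 0 genes over all genes. Leaving out any 1 of the 4 libraries ended the call of kfl00686_0010 (limma adjusted p 0.0684 to 0.199), and leaving out a high light library ended that of kfl00468_0110 (limma adjusted p of 0.109 and 0.108 without replicates 1 and 2).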
